A study of Mus musculus with 2 samples.

Results

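The positions described here are all places on the mouse mitochondrial genome that at least 1 m6A detection tool called in nanopore direct RNA sequencing of mouse embryonic stem cells. They were chosen by their chromosome alone: every unique base and strand on chrM in 17 deposited lists, which gave 232 of the 160430 positions in all. The lists come from 1 wild-type (WT) library and 1 Mettl3 knockout (KO) library of 129 strain mESCs. In the KO cells exons 5 to 7 of both Mettl3 alleles were replaced by puromycin and hygromycin resistance genes, according to the methods. Poly(A) RNA of both was sequenced with the same kit, and no replicate library was used here. Separate WT and KO lists came from Nanom6A, Tombo, Epinano, m6Anet, xPore, ELIGOS and MINES. Nanocompore, DiffErr and DRUMMER set the WT reads against the KO reads and gave a single list each, called comparison lists here.

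The mitochondrial genome is a small circle that encodes subunits of the respiratory chain, the mitochondrial rRNAs and a set of tRNAs. It is transcribed inside the organelle, by its own RNA polymerase, into long precursors from both strands, and the mature mRNAs are cut out, mostly at flanking tRNAs, and polyadenylated. METTL3 is the catalytic subunit of the methyltransferase complex that writes m6A on nuclear transcripts in the RRACH context, where R is A or G, H is A, C or U and the third base is the modified A. Pieces of mitochondrial DNA have also been copied into the nuclear chromosomes over evolution.

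All 232 positions lay in the 13 mRNA genes and 2 rRNA genes. None lay in the tRNA genes, which alone hold only 22 RRACH positions. The reads were aligned to annotated transcripts, so no position between genes could be listed. Most positions, 216, were on the plus strand of chrM, which has the sequence of most mitochondrial transcripts, and 16 were on the minus strand. Of the 232, 190 read RRACH on the listed strand and 42 did not. Those 190 made up 93.1% of the 204 RRACH positions in the mRNA and rRNA genes, and 14 were never listed. Over all RRACH positions of the coding and mitochondrial transcripts with a listed site, the background share in any list was 31.1%. It was 65.5% in cytosolic ribosomal protein genes and 58.4% in nuclear genes for respiratory chain subunits. Nanom6A alone accounted for 129 of the 232, and 103 were in the list of at least 1 other tool.

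The sequences below are the positions that most tools called, read from GRCm38 (NCBI RefSeq assembly) as DNA from 5′ to 3′, with the 5-mer around the called A in capitals. The first 4 were listed by 4 tools in WT or comparison lists, the most at any mitochondrial position.
mt-Nd2 position 4059, chrM:4049-4069, plus strand: aacaaaaaAAACCcacgatca
mt-Co1 position 5962, chrM:5952-5972, plus strand: ctactaacAGACCgcaaccta
mt-Co1 position 6652, chrM:6642-6662, plus strand: cgctactcAGACTacccagat
mt-Co3 position 9076, chrM:9066-9086, plus strand: ggtaaacgAAACCacataaat
The next 4, with mt-Nd2 4059, were the first in genomic order of the 7 positions that the same 3 tools listed in both libraries.
mt-Rnr2 position 1691, chrM:1681-1701, plus strand: aacttcctAAACTtaaaattg
mt-Rnr2 position 2445, chrM:2435-2455, plus strand: ttggatcaGGACAtcccaatg
mt-Nd4 position 11335, chrM:11325-11345, plus strand: tcttgatcAAACTttaccatt
mt-Nd5 position 12316, chrM:12306-12326, plus strand: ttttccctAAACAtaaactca
A further 3, together with mt-Rnr2 1691 and 2445, were the first of the 10 positions with the most tools in KO, 3 each.
mt-Rnr2 position 1538, chrM:1528-1548, plus strand: caaaagagGGACAgctcttct
mt-Rnr2 position 2299, chrM:2289-2309, plus strand: tataacctAGACTtacaagtc
mt-Rnr2 position 2574, chrM:2564-2584, plus strand: gtacgaaaGGACAagagaaat
Last are the remaining DRUMMER positions, shown since DRUMMER gave the shortest comparison list and mt-Co3 9076 above was its only other position.
mt-Co1 position 6007, chrM:5997-6017, plus strand: ggaggaggGGACCcaattctc
mt-Co2 position 7159, chrM:7149-7169, plus strand: taacaacaAAACTaacacata
mt-Atp6 position 8131, chrM:8121-8141, plus strand: acgaacatGAACCctaataat
mt-Cytb position 14751, chrM:14741-14761, plus strand: cctccacgAAACAggatcaaa

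Mettl3 itself served as the check of the labels. The replaced exons 5 to 7 held 2 listed positions in WT and 0 in KO. Together, exons 1 to 7 held 9 in WT and 0 in KO, and exons 8 to 11 held 4 in WT and 5 in KO. The lists give positions with no score, read number or modification rate, so the depth behind each position is unknown. With 1 library per condition no difference between WT and KO was tested, and the 95% intervals below cover counting error only.

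The tools differed widely in how many mitochondrial positions they called. In each case the share of the 204 mitochondrial RRACH positions is given beside the background, which is the share of all 499241 RRACH positions of the coding and mitochondrial transcripts with a listed site. Nanom6A, which classifies the current signal of RRACH 5-mers, listed 178 positions in WT and 215 in KO. Its RRACH positions made up 79.4% in WT (background 6.45%) and 84.8% in KO (background 5.33%). Tombo, which compares the signal with that of unmodified bases, listed 44 positions in WT and 41 in KO. These were 21.6% of the mitochondrial RRACH positions in WT (background 14.7%) and 20.1% in KO (background 13.3%). For Epinano, which works on basecalling errors, the numbers were 25 in WT, or 12.3% (background 8.65%), and 18 in KO, or 8.82% (background 2.92%). m6Anet, a neural network trained on m6A sites, listed 11 positions in each library, or 5.39%, against a background of 4.64% in WT and 2.69% in KO. xPore, which fits both libraries together, listed 7 in WT, or 3.43% (background 1.07%), and 9 in KO, or 4.41% (background 0.474%). ELIGOS, another tool based on basecalling errors, listed 4 in WT, or 1.96% (background 1.18%), and 3 in KO, or 1.47% (background 0.296%). MINES, which models 4 of the RRACH sequences, listed the single position mt-Rnr2 2445 in both libraries, or 0.490%, below its background of 2.62% in WT and 1.84% in KO.

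The mitochondrial shares were also set against those of nuclear gene sets. In WT, Nanom6A listed 57.0% of the RRACH positions of 78 cytosolic ribosomal protein genes and 44.1% of those of 84 nuclear genes for respiratory chain subunits, both below its mitochondrial share. For the other tools in WT the mitochondrial share was the lower one against ribosomal protein genes, with a ratio of 0.802 for Tombo, 0.885 for Epinano, 0.698 for m6Anet, 0.676 for xPore, 0.902 for ELIGOS and 0.127 for MINES. Against the respiratory chain genes the ratio was 0.999 for Tombo, 1.38 for Epinano, 0.608 for m6Anet, 1.05 for xPore, 1.42 for ELIGOS and 0.178 for MINES. In KO the ratio to ribosomal protein genes was above 1 for Nanom6A (1.52), Epinano (1.46) and ELIGOS (1.40), the last with 3 mitochondrial positions, and below 1 for xPore (0.913), m6Anet (0.905), Tombo (0.780) and MINES (0.156). Against the respiratory chain genes it was 2.15 for Nanom6A, 2.06 for Epinano, 4.05 for ELIGOS, 1.56 for xPore, 0.927 for m6Anet, 0.957 for Tombo and 0.204 for MINES in KO.

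Nanocompore and DiffErr each listed 17 mitochondrial positions, or 8.33% of the RRACH positions (95% Wilson interval 5.27 to 12.9), against backgrounds of 0.419% and 0.348%. DRUMMER listed 5, or 2.45% (1.05 to 5.61), against 0.251%. The mitochondrial share was 20.04-fold, 24.2-fold and 9.79-fold that of nuclear coding transcripts, respectively. Against the 1242 RRACH positions of the ribosomal protein genes the same ratios were 1.005, 1.15 and 0.609. Against the 1376 RRACH positions of the nuclear respiratory chain genes they were 4.10, 5.73 and 2.25. Without the positions whose surrounding 31 bases also occur exactly in the nuclear genome, the shares were 3.23% (4 of 124), 1.61% (2 of 124) and 0.806% (1 of 124). That exclusion took out 39 of the 44 RRACH positions of mt-Co1, mt-Co2, mt-Atp6 and mt-Co3, which held 27 of the 30 positions in these lists. Of the 5 positions left in these genes, 4 were in a comparison list.

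**Figure D1:**
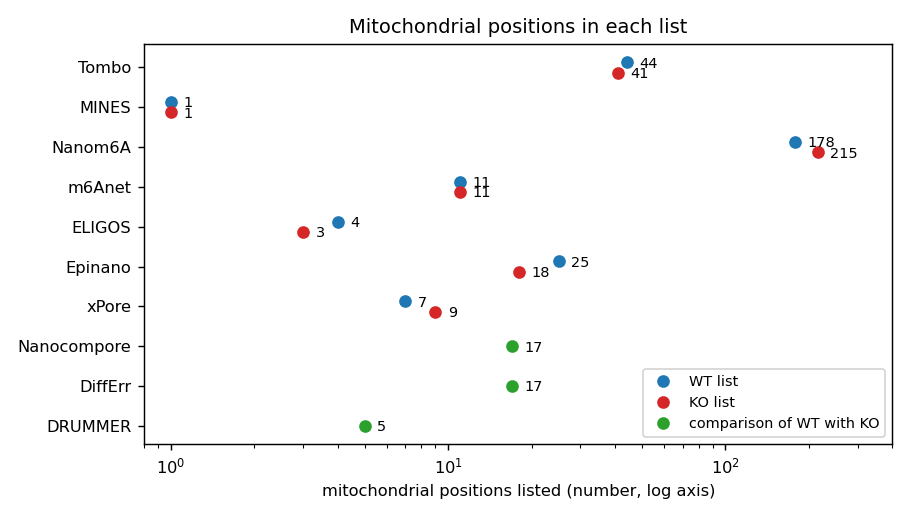
Number of mitochondrial positions in each of the 17 lists, on a log axis, with WT lists in blue, KO lists in red and comparison lists in green. Nanom6A holds 178 and 215 positions, and the other tools hold between 1 and 44.

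**Figure D2:**
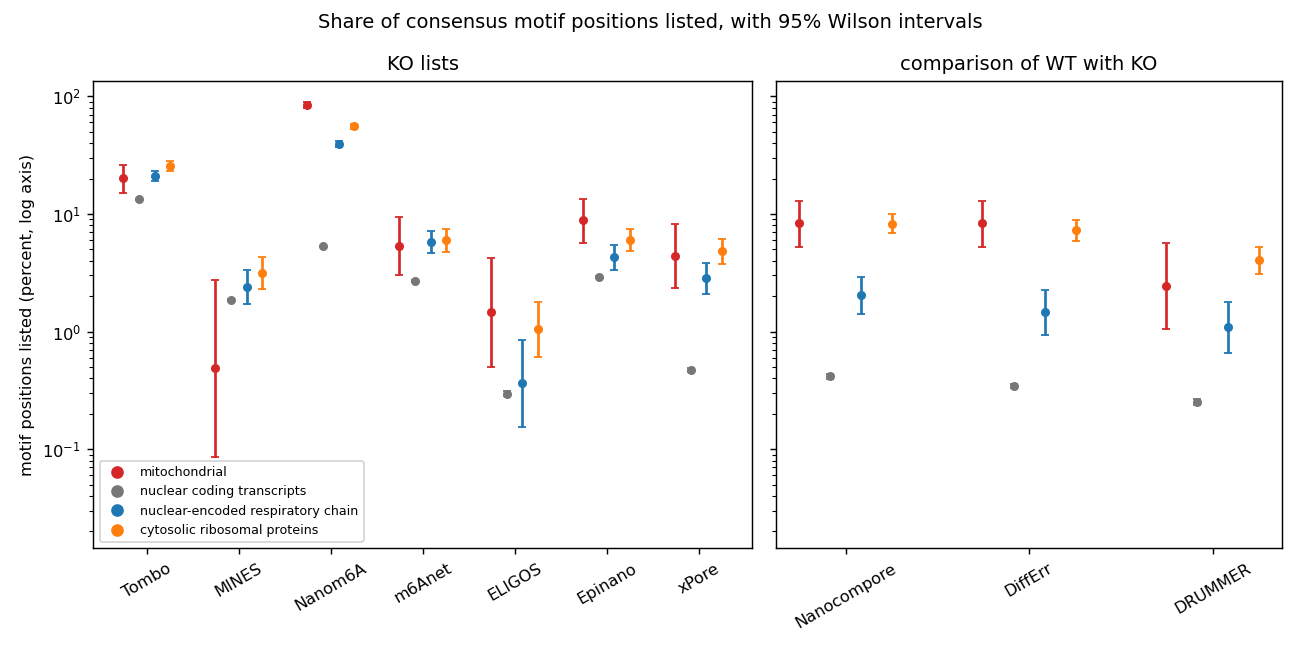
Percent of RRACH positions listed (log axis) on mitochondrial transcripts and on 3 sets of nuclear transcripts, for the KO lists and for the comparison lists, with points for the share and bars for the 95% Wilson interval. In the Nanocompore and DiffErr lists the mitochondrial and ribosomal protein points lie side by side near 8%, above both other sets.

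Tools other than Nanom6A called 103 of the 204 mitochondrial RRACH positions (50.5%, 43.7 to 57.3), against a background of 28.3%. The same share was 49.8% (47.0 to 52.5) in the ribosomal protein genes and 37.7% (35.2 to 40.3) in the nuclear respiratory chain genes. In the complex IV genes, which encode the core subunits of cytochrome c oxidase, 29 of 36 RRACH positions (80.6%, 65.0 to 90.2) were in such a list, with 15 of 16 in mt-Co1, 9 of 12 in mt-Co2 and 5 of 8 in mt-Co3. Nanom6A listed all 36 in both libraries. Complex V, the ATP synthase, had nearly the same share, 8 of 10 (80.0%, 49.0 to 94.3), with both positions of mt-Atp8 and 6 of 8 in mt-Atp6. mt-Cytb, the mitochondrial subunit of complex III, had 11 of 20. Across the complex I genes, which encode subunits of NADH dehydrogenase, 42 of 85 positions (49.4%, 39.0 to 59.8) were called by a tool other than Nanom6A. The highest count there was 15 of 22 in mt-Nd4, followed by 11 of 27 in mt-Nd5, 6 of 11 in mt-Nd1, 5 of 15 in mt-Nd2, 3 of 5 in mt-Nd4l and 2 of 4 in mt-Nd3. The rRNA genes had the lowest share, 13 of 53 (24.5%, 14.9 to 37.6), with 4 of 23 in mt-Rnr1 and 9 of 30 in mt-Rnr2, the RNAs of the small and the large mitochondrial ribosomal subunit. Nanom6A listed no position of mt-Atp8 or mt-Nd4l, and 5 of the 10 positions that other tools called without Nanom6A were in those 2 genes. The shares by complex count the comparison lists, which held 23 of 36 positions in complex IV, 4 of 10 in complex V and 1 of 85 in complex I. In WT, Tombo listed 22.2% of complex IV and 21.2% of complex I positions, and Epinano 13.9% and 17.6%. The same shares were 8.33% and 7.06% for m6Anet, 5.56% and 2.35% for xPore and 0% and 4.71% for ELIGOS.

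Along the genes, the share listed by a tool other than Nanom6A was 45.7% (34.6 to 57.3) in the part nearest the 5′ end, 50.0% (38.4 to 61.6) in the middle and 56.1% (44.1 to 67.4) nearest the 3′ end, for genes divided into 3 equal parts. These intervals overlap. The comparison lists held 7 of 70, 15 of 68 (22.1%, 13.8 to 33.3) and 8 of 66 (12.1%, 6.27 to 22.1) RRACH positions of the same parts, also with overlapping intervals.

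**Figure D3:**
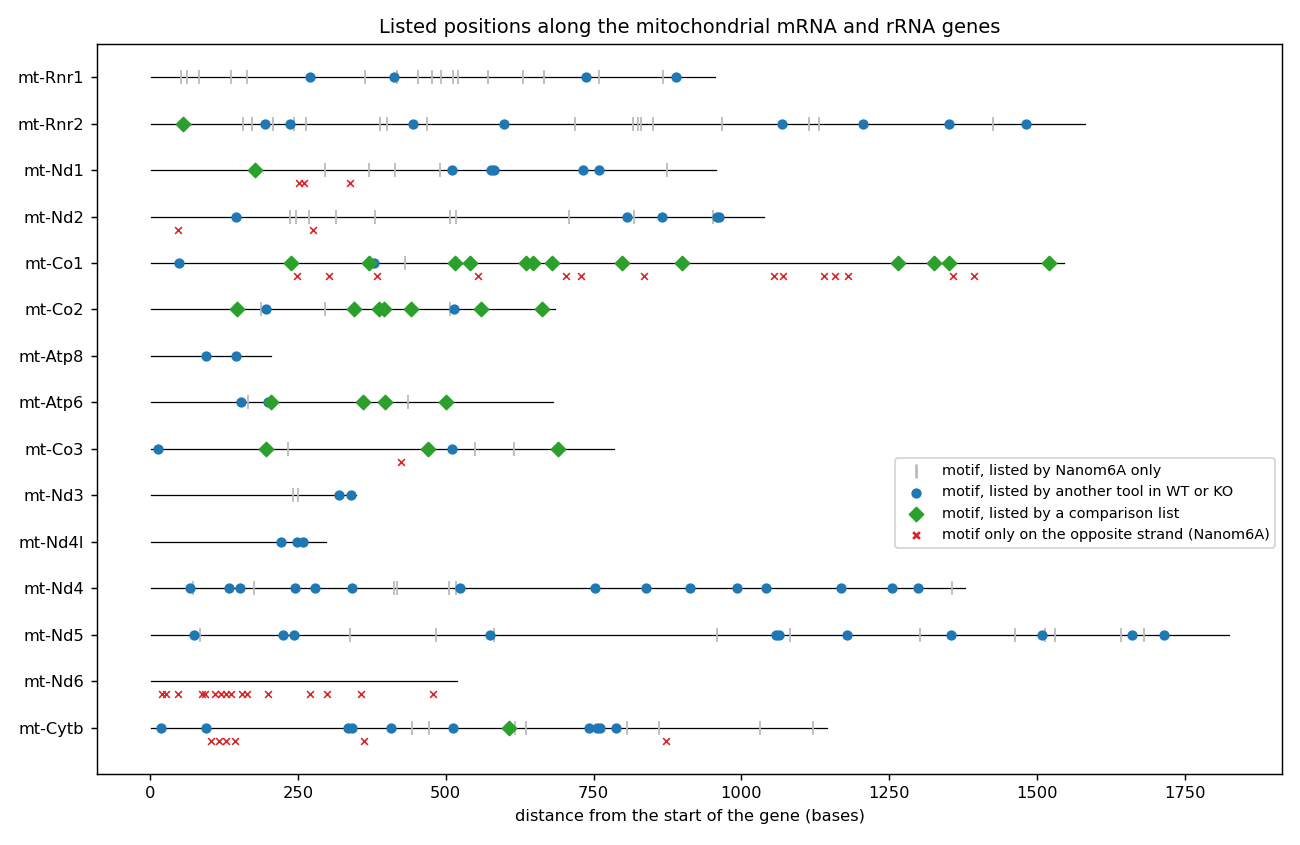
Listed positions along each mitochondrial mRNA and rRNA gene, with the distance from the gene's first base in bases on the horizontal axis and 1 line per gene. Diamonds mark the 30 positions of the comparison lists, 27 of which lie in mt-Co1, mt-Co2, mt-Atp6 and mt-Co3, and crosses mark the 42 positions that read RRACH only on the opposite strand.

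The comparison lists together held 30 mitochondrial positions, and they were unevenly placed. mt-Co1 had 13 of its 16 RRACH positions in a comparison list, mt-Co2 7 of 12, mt-Atp6 4 of 8 and mt-Co3 3 of 8. These 4 genes, grouped after their values were seen, thus held 27 positions, or 61.4% of their 44 RRACH positions, against a background of 0.629% for any comparison list. In the remaining mRNA and rRNA genes 3 of 160 RRACH positions (1.88%) were listed, namely mt-Rnr2 1149 and mt-Nd1 2927 by Nanocompore and mt-Cytb 14751 by DRUMMER. DiffErr listed no position outside those 4 genes.

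mt-Co1 was called along most of its length, from position 5566, 239 bases from the gene start, to position 6848, 24 bases from its end. Nanocompore and DiffErr each listed 8 positions in mt-Co1 and shared 3 of them there, at 5697, 5962 and 6592. Nanocompore alone of this pair listed 5566, 5868, 5974, 6652 and 6679, and DiffErr alone listed 5843, 6007, 6125, 6226 and 6848. In mt-Co2 Nanocompore listed 7399, 7408 and 7674 and DiffErr listed 7159, 7356, 7453 and 7572, with none in common. In mt-Atp6 Nanocompore listed 8131 and 8323 and DiffErr 8286 and 8427. In mt-Co3 they shared 8802 and 9076, and DiffErr also listed 9296. Over all genes the 2 tools shared 5 positions, or 29.4% of each list. All 5 were in complex IV genes, where Nanocompore listed 13 of the 36 RRACH positions (36.1%) and DiffErr 15 (41.7%). Nuclear positions were shared at 38.2% of the Nanocompore list and 46.0% of the DiffErr list. These lists held only 0.416% and 0.345% of the RRACH positions of nuclear coding transcripts.

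Only mt-Co3 9076 was in the lists of Nanocompore, DiffErr and DRUMMER, and it was also in both Nanom6A lists and the KO list of Tombo. A further 7 positions were in 2 comparison lists and 22 in 1. All 30 were in the WT list and in the KO list of Nanom6A, which held all 44 RRACH positions of mt-Co1, mt-Co2, mt-Atp6 and mt-Co3 in both libraries. The WT list of Tombo, MINES, m6Anet, ELIGOS or Epinano held 8 of the 30 (26.7%, 14.2 to 44.4), whereas such a list held 92.7% of the 3136 nuclear comparison positions. In KO, the lists of the same 5 tools held 7 of the 30 (23.3%, 11.8 to 40.9) and 49.7% of the nuclear ones. Nanom6A, left out of these counts, held 89.5% of the nuclear comparison positions in WT and 48.0% in KO.

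Most WT mitochondrial positions were listed again in KO by the same tool. For Nanom6A this held for 171 of 178 positions (96.1%, 92.1 to 98.1; background 65.4%). Tombo listed 38 of 44 again (86.4%, 73.3 to 93.6; background 59.7%), and Epinano 18 of 25 (72.0%, 52.4 to 85.7; background 16.5%). m6Anet listed 7 of 11 again (63.6%, 35.4 to 84.8), against a background of 34.4%. All 7 xPore positions were repeated (64.6 to 100), against a background of 24.9%. ELIGOS repeated 3 of 4 (75.0%, 30.1 to 95.4), against 11.5%, and MINES repeated its 1 position, against 40.2%. No Epinano or ELIGOS position of the KO list was absent from the WT list of the same tool.

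Positions listed by a tool in 1 library only were unevenly divided for some tools. Nanom6A had 7 in WT only and 44 in KO only, and over RRACH positions 7 and 18. Epinano had 7 in WT only and 0 in KO only, Tombo 6 and 3, m6Anet 4 and 4, xPore 0 and 2, ELIGOS 1 and 0 and MINES 0 and 0. The intervals of the ratios that follow treat the WT and KO counts as separate, although most positions were in both lists. The ratio of KO to WT was 0.932 (0.594 to 1.46) for Tombo, where nuclear positions had 0.905, and 1 (0.393 to 2.54) for m6Anet, where they had 0.580, inside the interval. For Epinano it was 0.720 (0.370 to 1.37), and the nuclear ratio of 0.339 lay below that interval. For xPore it was 1.29 (0.426 to 4.06), against a nuclear 0.445 inside the interval. The interval for ELIGOS, with 7 calls in all, ran from 0.110 to 4.43 around 0.750, and the nuclear ratio of 0.259 lay inside it. The Nanom6A ratio was 1.21 (0.986 to 1.48) over all positions and 1.07 (0.857 to 1.33) over RRACH positions, and nuclear positions had 0.829.

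**Figure D4:**
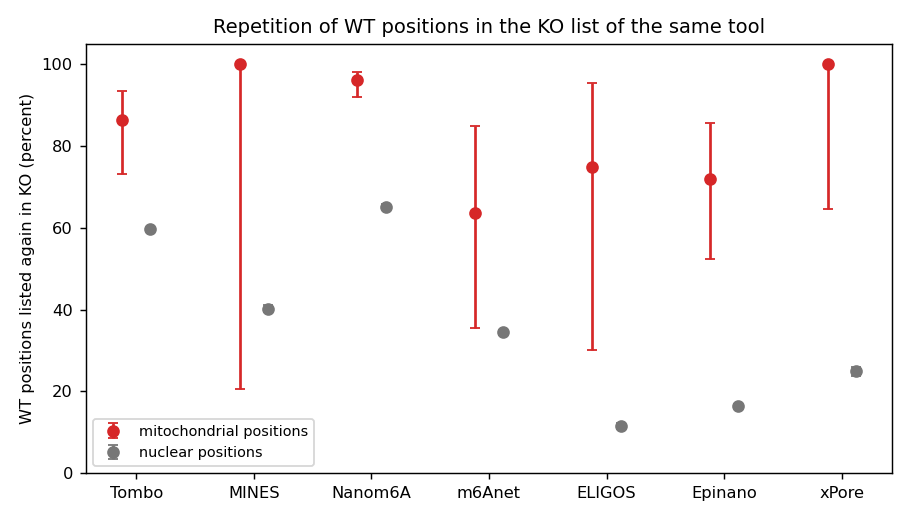
Percent of the WT positions of each tool that its KO list also holds, for mitochondrial positions in red and nuclear positions in grey, with bars for the 95% Wilson interval. The mitochondrial point lies above the nuclear one for each of the 7 tools, and the m6Anet, ELIGOS and MINES intervals are wide because they rest on 11, 4 and 1 positions.

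At the level of single positions and over all tools, 189 of the 232 (81.5%, 76.0 to 85.9) were listed in both libraries, against a background of 47.5% of all positions. KO only held 38 (16.4%, 12.2 to 21.7; background 19.6%) and WT only 5 (2.16%, 0.924 to 4.94; background 32.9%). The 5 WT-only positions were all in mt-Rnr1 and all came from Nanom6A alone. Of the KO-only positions 36 came from Nanom6A alone, and 13 lay in mt-Co1, 6 in mt-Cytb and 6 in mt-Rnr2. Only 12 of the 38 read RRACH on the listed strand, and all those in mt-Co1 and mt-Cytb were Nanom6A entries that read RRACH on the opposite strand only, described below. All 30 comparison positions were in the KO list of Nanom6A. The KO list of Tombo, MINES, Nanom6A, m6Anet, ELIGOS or Epinano held 72.0% of the nuclear comparison positions. Without Nanom6A, the KO lists of these tools held 7 of the 30 and 49.7% of the nuclear ones.

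Agreement between tools was limited. In WT or the comparison, 110 of 194 positions (56.7%, 49.7 to 63.5) had 1 tool, against a background of 65.3%, 57 had 2, 23 had 3 and 4 had 4. No mitochondrial position had 5 or more (0 of 194, upper Wilson limit 1.94%), against a background of 3.28%. In KO, 166 of 227 (73.1%, 67.0 to 78.5) had 1 tool, against a background of 76.7%, 51 had 2 and 10 had 3. Of the positions of tools other than Nanom6A, 93 of 103 (90.3%) were also listed by Nanom6A, which listed 180 of all 204 RRACH positions (88.2%) in at least 1 library.

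The 4 positions with 4 tools had different kinds of support. mt-Nd2 4059, whose sequence above holds a run of 8 A that reaches into the motif, was listed by Tombo, Nanom6A, ELIGOS and Epinano in WT. All of these except ELIGOS listed it in KO. mt-Co1 5962 was listed by Nanom6A and xPore in both libraries and by Nanocompore and DiffErr. mt-Co1 6652 was listed by Nanocompore, by Tombo and Nanom6A in both libraries, and by Epinano in WT. Of the 4, both mt-Co1 positions and mt-Co3 9076 have an exact copy in the nuclear genome and mt-Nd2 4059 has none.

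Among positions with the same tools in both libraries, mt-Rnr2 1691 and mt-Nd5 13456 were listed by Tombo, Nanom6A and Epinano. mt-Nd4 11335 and mt-Nd5 12316 were listed by Nanom6A, ELIGOS and Epinano. mt-Rnr2 2445 was listed by Tombo, MINES and Nanom6A, and mt-Cytb 14552 by Tombo, Nanom6A and xPore. The other ELIGOS position, mt-Nd4 10445, was listed by ELIGOS and Nanom6A in both libraries. In mt-Rnr2, Tombo and Nanom6A listed 1538 and 2299 in both libraries and m6Anet listed both in KO only. At mt-Rnr2 2574 Tombo and xPore were repeated and Nanom6A was added in KO.

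Pairs of tools overlapped unequally. Nanom6A held 35 of the 44 Tombo positions (79.5%) and 22 of the 25 Epinano positions (88.0%) in WT, which were 19.7% and 12.4% of its own 178. Since Nanom6A listed 79.4% of all mitochondrial RRACH positions in WT, its share of the Tombo positions was close to its share of RRACH positions in general. For nuclear WT positions it held 18.5% of the Tombo list and 16.5% of the Epinano list, and 6.42% of the RRACH positions of nuclear coding transcripts. Tombo and Epinano shared 6 positions in WT, 13.6% of the former and 24.0% of the latter, near the 12.3% and 21.6% of all mitochondrial RRACH positions that Epinano and Tombo listed. Nuclear positions had 24.4% and 41.3%, where the lists held 8.65% and 14.7% of the RRACH positions. ELIGOS and Epinano shared 3 of the 4 ELIGOS positions in WT, and 62.1% of the nuclear ones. m6Anet and Epinano had no mitochondrial position in common, 0 of 11 in WT and 0 of 11 in KO. Epinano listed 12.3% of all mitochondrial RRACH positions in WT and 8.82% in KO. Of the 39 GAACH positions, where all 11 WT and 9 of the 11 KO positions of m6Anet lay, it listed 2 in WT and 1 in KO. Epinano held 26.2% of the nuclear m6Anet positions in WT and 4.40% in KO, and 8.65% and 2.92% of nuclear RRACH positions.

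The 5-mers of mitochondrial RRACH positions differed in make-up from nuclear ones. AAACH made up 115 of 204 (56.4%) against 26.2% of nuclear RRACH positions, and GGACH 22 of 204 (10.8%) against 24.8%. Epinano positions were AAACH in 20 of 25 cases in WT and 16 of 18 in KO, against 20.3% and 35.9% of its nuclear positions. All ELIGOS positions were AAACH, 4 in WT and 3 in KO, against 11.2% and 33.8% of its nuclear positions. m6Anet listed GAACH in all 11 WT cases and 9 of 11 KO cases, where GAACH was 19.1% of the mitochondrial RRACH positions. Its nuclear positions were GAACH in 38.0% of cases in WT and 53.6% in KO, against 22.5% of nuclear RRACH positions. Tombo listed AAACH in 22 of 44 WT cases and 22 of 41 KO cases, against 10.7% and 13.7% of its nuclear positions.

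Of the 12 RRACH sequences, AAACA was the most frequent in these genes with 40 positions, followed by AAACT with 39 and AAACC with 36. GGACT, the form most often cited for nuclear m6A, occurred at 12 positions and 11 of them were listed. Tools other than Nanom6A called only 2 of these in WT and 3 in KO, and no comparison list held one. The 30 comparison positions comprised 15 AAACH and 9 GAACH, and 3 were among the 4 sequences that MINES models, namely AGACT and GGACH with any of its last bases. These 4 sequences made up 28 of the 204 mitochondrial RRACH positions (13.7%) and 33.0% of nuclear RRACH positions. Among the 3136 nuclear comparison positions 84.3% were in these 4 sequences and 2.87% were AAACH. DiffErr placed 2 of its 17 mitochondrial positions in the 4 sequences, against 92.0% of its nuclear positions, and Nanocompore placed 1 of 17 there, against 81.1%. Runs of at least 5 equal bases within 10 bases were found at 16.2% of mitochondrial RRACH positions and 7.90% of nuclear ones. The share was 15.5% at positions called by a tool other than Nanom6A and 3 of 30 at comparison positions.

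The 42 positions that did not read RRACH were all listed by Nanom6A alone, and all 42 read RRACH on the opposite strand. On the minus strand there were 16, all in mt-Nd6, the only mRNA gene transcribed in that direction. They were the 16 RRACH 5-mers of the plus strand that face mt-Nd6, and 15 were in the WT list and 16 in the KO list. The 1 RRACH position that mt-Nd6 has on its own strand was not listed by any tool. One of the 16 is shown on the listed strand and then on the strand that holds the motif.
mt-Nd6 position 13714, chrM:13704-13724, minus strand, as listed: atcttgatGGTTTgggagatt
mt-Nd6 position 13714, chrM:13704-13724, plus strand: aatctcccAAACCatcaagat

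The other 26 were on the plus strand, 14 of them in mt-Co1, 6 in mt-Cytb, 3 in mt-Nd1, 2 in mt-Nd2 and 1 in mt-Co3. All 26 were in the KO list and only 1, mt-Co1 6383, was in the WT list.
mt-Co1 position 6383, chrM:6373-6393, plus strand, as listed: cagttggtGGTCTaaccggaa
mt-Co1 position 6383, chrM:6373-6393, minus strand: ttccggttAGACCaccaactg
Without these 42 positions the Nanom6A lists held 162 positions in WT and 173 in KO. Over both Nanom6A lists the positions that did not read RRACH were 18.9% of mitochondrial and 1.22% of nuclear positions. Of the 480 such nuclear positions, 412 (85.8%) read RRACH on the opposite strand. How the strand was assigned in these lists was not tested.

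Part of the mitochondrial genome has nuclear copies with the same sequence. The 31 bases around 89 of the 232 positions occurred exactly on a nuclear chromosome, and 51 bases did so for 76. For 49 positions the copy was itself in a list. All 49 of these listed copies were on the minus strand of chromosome 1, between chr1:24611573-24615986, within 7 annotated unprocessed pseudogenes. Gm28661 held 12 of them, Gm28439 10, Gm28437 9, Gm10925 8, Gm28438 4, Gm29216 4 and Gm10222 2. Every listed position within 2000 bases of this stretch was such a copy. Reads of identical sequence cannot be told apart by position, so a call on either copy may rest on RNA of the other.

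Within the chromosome 1 stretch 68 RRACH or listed mitochondrial positions had a copy, which allowed the lists to be compared position by position. Nanom6A listed 47 of these on chrM and 34 on chromosome 1 in WT, 33 of them at both, and 57, 40 and 40 in KO. For Tombo the numbers were 14, 8 and 8 in WT and 13, 11 and 11 in KO. Epinano listed 9, 6 and 4 in WT and 7, 6 and 5 in KO. m6Anet listed 5, 4 and 2 in WT, and in KO it listed fewer on chrM than on chromosome 1, with 3, 5 and 3. xPore listed 1 on chrM in each library and 0 copies in WT and 2 in KO, none of them at both. ELIGOS listed 1 position on chrM in each library, with its copy in KO only. Nanocompore listed 10 on chrM and 1 on chromosome 1, the copy of a position that it listed on chrM too. DiffErr listed 11 on chrM and DRUMMER 3, and neither listed any copy on chromosome 1.

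The comparison positions and the nuclear copies overlapped in place. Of the 30 comparison positions 23 had an exact 31-base copy, 18 of them in the chromosome 1 stretch. In mt-Co1, mt-Co2, mt-Atp6 and mt-Co3 a comparison list held 23 of the 39 RRACH positions with a copy and 4 of the 5 without. In the other mRNA and rRNA genes it held 0 of 41 with a copy and 3 of 119 without. The part of the nuclear copies in the comparison calls was not tested.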

How the data were processed

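The authors basecalled the direct RNA reads with Guppy, aligned them with Minimap2 to the GENCODE mouse transcriptome of GRCm38 (mm10), ran each tool on RRACH positions, applied a cut-off per tool and converted transcript to genome positions. They deposited 17 lists of positions with strand and transcript (Nanom6A: gene symbol). These lists hold no count, score or depth, and the precision of a single call is therefore unknown.

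Here a member was a unique base and strand on chrM, numbered from 1. Genes came from GENCODE M21, a later release than the authors used. The transcript position, checked in the 214 lines that gave one, was at most 1 base from the listed base each time. The 5-mer was read from the RefSeq copy of GRCm38. Nuclear copies were exact matches of 31 bases on either strand. Shares have 95% Wilson intervals, and ratios have an interval from the exact binomial interval. These treat positions as independent, although neighbouring positions share reads. No test was run, as each condition had 1 library. Named positions were those with most tools in WT or the comparison, in KO and in both libraries (5 each, ties in genomic order) and all in the Nanocompore, DiffErr, DRUMMER and ELIGOS lists. Beyond this rule, mt-Nd5 13456, mt-Cytb 14552, mt-Co1 6383 and mt-Nd6 13714 were chosen after their values were seen. Members, gene lists and rules were chosen with earlier results of these data known. Python 3.11.15, numpy 2.4.6, scipy 1.17.1 and matplotlib 3.10.9 were used.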

Additional observations from a re-analysis of the deposited data

How the results depend on the processing

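No paired analysis was possible because each condition had 1 library. The number of positions was 143 without those with an exact nuclear copy and, in an alternative chosen after seeing the data, 103 without Nanom6A. The share with 1 tool in WT or the comparison was 68.6% without nuclear copies, 67.7% without Tombo, 69.4% with single-library tools only and 71.7% without Nanom6A, the last chosen after seeing the data. With mRNA genes only, Nanom6A repeated 99.3% of its WT positions in KO and MINES listed 0% of the RRACH positions in either library. In the 4 sequences that MINES models alone, the listed share was 32.1% and 35.7% for Tombo in WT and KO, 3.57% in both for MINES, 64.3% and 67.9% for Nanom6A and 0% in both for ELIGOS. There it was 0% for m6Anet and 7.14% for xPore in WT, 3.57% for Epinano in KO and 3.57% for Nanocompore. These shares rest on only 28 mitochondrial positions. Nuclear coding transcripts have 164629 positions of these sequences. The nuclear lists held 12420 of these sequences for m6Anet in WT, and 4285 in WT and 507 in KO for ELIGOS. For these lists the mitochondrial share was thus below the nuclear one, the reverse of all RRACH positions. Nuclear shares of these sequences were not computed for the other lists. Without nuclear copies, also chosen after seeing the data, the share was 3.23% for Nanocompore, 1.61% for DiffErr and 0.806% for DRUMMER. This took out 39 of the 44 RRACH positions of mt-Co1, mt-Co2, mt-Atp6 and mt-Co3, where most comparison positions lay. With runs of at least 4 equal bases, 35.9% of the positions of tools other than Nanom6A had one. All mitochondrial RRACH positions had 39.7% and nuclear ones 28.1%. The causes of these shifts were not tested. The other 114 recomputed values moved by less than their interval, or by less than 1.5 times for counts. The lists give no depth, so a position that is not listed may have lacked reads, and with 1 library a difference between WT and KO cannot be told apart from one between libraries.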
